A study of Mus musculus with 12 samples.

Results

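The genes examined here encode 8 transcription factors that set and maintain intestinal identity: Gata4, Gata5, Gata6, Hnf4a, Hnf4g, Cdx1, Cdx2 and Prdm1. They are 8 of the 21900 protein-coding genes of the RefSeq table used (mm10, GRCm38.p6). A chromatin peak was assigned to a gene when it overlapped the gene's RefSeq span extended by 1000 bp on each side, which gave 158 of 274593 peaks. Of these, 108 came from the peak caller SEACR, which outlines broad enriched domains, and 50 from MACS2, which marks narrow summits. Because many of the narrow peaks lie inside the domains, neighbouring peaks of a gene are not independent measurements.

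The peaks were measured by CUT&RUN, in which an antibody tethers a nuclease that releases the DNA beside a histone mark. The cells were mouse intestinal organoids, 3-dimensional epithelial cultures grown from isolated crypts in Matrigel with EGF, Noggin, R-spondin and the GSK3 inhibitor CHIR-99021. They received vehicle or 25 µM arachidonic acid (AA), the omega-6 fatty acid from which prostaglandins are made, for 6 days. Each of 3 marks had 2 vehicle and 2 AA libraries, 12 libraries in 6 groups. The sample labels name no genotype, whereas the series' own design note mentions Ptger knockout organoids and a prostaglandin treatment. The genotype of these libraries is therefore uncertain, and the prostaglandin treatment was not analysed here. Whether the 2 libraries of a group are independent cultures is not stated, so a p-value here reflects only library-to-library spread, possibly technical. The culture holds stem, progenitor and differentiated cells together, and a change in the mix of cells cannot be told apart from a change within each cell.

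H3K4me3 marks active promoters, H3K27ac marks active promoters and enhancers, and H3K27me3 is laid down by Polycomb repressive complex 2 at silenced genes. CDX2 and its relative CDX1 are caudal-type homeobox factors, and loss of CDX2 lets intestinal epithelium take on stomach features. HNF4A and HNF4G are nuclear receptors that act together to sustain the enterocyte programme. GATA4 and GATA6 are zinc-finger factors of the crypt and villus, GATA4 sets jejunal against ileal identity, and GATA5 is a further member of their family. PRDM1, also called BLIMP1, is a repressor that holds back the adult enterocyte programme in the fetal and neonatal gut.

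RefSeq promoter sequences (GRCm38.p6) were matched for 4 of the 8 genes: Hnf4a with 2 starts, Gata5, Cdx2 and Prdm1. Hnf4a is transcribed from an upstream promoter, P2, and a downstream promoter, P1, both of which are used in the intestine. The 250 bases before a start are shown for the genes with a called narrow H3K4me3 peak over a listed start. Those of Hnf4aos are shown as well, because the peak at its start went the other way. Hnf4aos is an antisense long non-coding RNA that starts inside Hnf4a and runs past the P2 start. Hnf4aos was singled out after its values were seen. Each sequence runs 5′ to 3′ on the strand of its gene, ends at the base before the start, and has any GATA motif in capitals (AGATAA or TGATAA on either strand).
Hnf4a P2, chr2:163506607-163506856, plus strand: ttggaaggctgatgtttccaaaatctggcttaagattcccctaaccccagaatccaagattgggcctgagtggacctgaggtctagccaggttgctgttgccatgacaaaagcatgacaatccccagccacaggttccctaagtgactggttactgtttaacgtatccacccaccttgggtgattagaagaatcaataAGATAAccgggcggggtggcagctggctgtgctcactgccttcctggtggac
Hnf4a P1, chr2:163546905-163547154, plus strand: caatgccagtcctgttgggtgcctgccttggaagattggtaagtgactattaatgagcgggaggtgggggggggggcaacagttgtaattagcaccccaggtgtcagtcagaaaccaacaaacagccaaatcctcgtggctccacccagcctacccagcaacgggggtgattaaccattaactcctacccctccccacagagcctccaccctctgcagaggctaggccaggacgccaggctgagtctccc
Hnf4aos, chr2:163541722-163541971, minus strand: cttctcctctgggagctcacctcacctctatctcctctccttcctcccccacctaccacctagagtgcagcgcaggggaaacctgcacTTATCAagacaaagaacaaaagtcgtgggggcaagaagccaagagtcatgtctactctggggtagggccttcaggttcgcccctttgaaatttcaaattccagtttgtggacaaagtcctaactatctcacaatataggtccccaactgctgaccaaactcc
Gata5, chr2:180334680-180334929, minus strand: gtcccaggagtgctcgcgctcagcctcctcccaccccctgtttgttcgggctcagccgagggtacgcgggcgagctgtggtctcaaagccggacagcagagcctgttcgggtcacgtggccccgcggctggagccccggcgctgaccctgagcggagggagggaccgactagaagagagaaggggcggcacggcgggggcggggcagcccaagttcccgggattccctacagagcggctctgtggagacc
Cdx2, chr5:147307250-147307499, minus strand: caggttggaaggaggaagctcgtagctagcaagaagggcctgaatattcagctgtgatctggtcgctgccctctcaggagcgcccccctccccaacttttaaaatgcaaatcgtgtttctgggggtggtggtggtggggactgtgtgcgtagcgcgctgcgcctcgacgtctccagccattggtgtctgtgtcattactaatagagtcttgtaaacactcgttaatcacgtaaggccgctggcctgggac

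The sequence before the Gata5 start was the richest in GC, at 70% with 22 CpG dinucleotides, against a median of 52.4% and 6 CpG over 32851 RefSeq promoters. The Cdx2 sequence had 55.2% GC and 13 CpG. Both Hnf4a sequences and that of Hnf4aos were CpG-poor, with 3, 4 and 3 CpG for P2, P1 and Hnf4aos. A GATA motif stood 52 bases before the Hnf4a P2 start and, in the reverse orientation, 162 bases before the Hnf4aos start. The 300-base windows (250 bases before to 50 after the start) of 18.6% of all promoters hold such a motif. No other window of these genes held it, and none held the HNF4 motif CAAAGTCCA, the CDX motif TTTATNG or the PRDM1 motif GAAAGTG, which 0.475%, 10.9% and 4.81% of all promoter windows hold.

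Peak scores, the deposited signal, are mean coverage per base multiplied by a factor for each library. The scale matters for H3K4me3, where the raw coverage of the median SEACR peak was 3.38 and 2.35 with vehicle but 1.37 and 1.46 with AA. Depth and treatment thus cannot be told apart for weak H3K4me3 peaks. Counts without each library are given below. The epithelial character of the cultures was checked with marker genes. All 10 epithelial markers had a gene-end peak of H3K4me3 and of H3K27ac, where a gene-end peak lies within 1 kb of a listed start or, without one, of either end of the gene. None of the 11 fibroblast or 10 endothelial and glial markers had a gene-end H3K27ac peak, and 2 of 10 blood markers did, Spi1 and Cd68. A gene-end H3K4me3 peak was present at 5 of 11 fibroblast, 4 of 10 blood and 4 of 10 endothelial and glial markers. Their median changes were -0.74, -0.27 and -0.56, against 0.20 over all genes with such a peak and 0.20 for the epithelial markers, and none of these peaks was called. The levels differ, with median scores of 0.12, 0.282 and 0.155 against 0.721 over all genes and 0.908 for the epithelial markers. All H3K4me3 domains in the bins of 10 by score that hold these 3 medians (4, 8 and 6) had median changes of -0.35, -0.21 and -0.27. The summed H3K4me3 scores of these markers in vehicle were 1.29 and 1.45 (fibroblast), 1.3 and 1.53 (blood) and 0.883 and 0.797 (endothelium and glia), and in AA 1.15 and 0.848, 1.34 and 1.1, and 0.809 and 0.663. The part of other cell types in the results was not tested. The summed H3K27ac score of these blood markers was 0.493 and 0.296 in vehicle and 0.47 and 0.404 in AA.

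Cdx2 and Gata4 carried some of the longest H3K4me3 domains of the data. The domain at Cdx2 ran over 22089 bp (chr5:147298532-147320620), covered the whole gene and overlapped its neighbour Urad. It was among 30 H3K4me3 peaks longer than 20 kb out of 58548. Gata4 had a domain of 30414 bp (chr14:63227427-63257840) in its body and a second of 13387 bp at its end (chr14:63259665-63273051). At Gata6 the domain measured 15407 bp (chr18:11046885-11062291) and overlapped the antisense gene Gata6os. The median H3K4me3 peak was 1392 bp long.

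The strongest vehicle H3K4me3 score fell in the order Gata6, Cdx2, Gata4 and Gata5, at means of 1.54, 1.35, 1.3 and 1.26, and the 2 libraries of each neighbour in this order did not overlap. Hnf4a (at P2), Cdx1 and Hnf4g followed at 0.956, 0.944 and 0.928, and these 3 could not be ordered because their libraries overlapped. Prdm1, the repressor of the adult programme, was lowest at 0.595. For H3K27ac, Gata4 was highest at a mean of 0.519, with both libraries above those of every other gene. Cdx1 had the lowest mean, 0.332, but its libraries (0.325 and 0.339) lay between those of Prdm1 (0.313 and 0.449). Neighbours among the 6 genes between Gata4 and Cdx1 overlapped.

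Acetylation covered most of these domains. Of the bases under H3K4me3, between 92% (Gata4) and 100% (Gata5 and Cdx2) also lay under an H3K27ac peak for 7 genes. Prdm1 differed, with 63.8%. It also held 14 of the 18 H3K27me3 peaks of the set, which covered 33.2% of its window. Cdx2, Hnf4a and Gata4 had short H3K27me3 peaks covering 10.8%, 3.01% and 1.91%, and Gata5, Gata6, Hnf4g and Cdx1 had none.

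The first comparison set H3K4me3 in AA against vehicle at the identity factors; the title of the series speaks of reprogramming of intestinal stemness by this fatty acid. A peak was called when limma, fitted to the log2 scores of every peak of the mark, gave a Benjamini-Hochberg adjusted p below 0.05. Among SEACR domains, H3K4me3 rose at Gata5, Gata6 and an internal region of Hnf4g and fell at an internal region of Hnf4a. These were 4 of 45 member domains, 3 higher and 1 lower. Over all domains 2.92% were called, 1.54% higher and 1.38% lower. In the top 10% of domains by mean score over all 4 libraries, which held 9 member domains, 10.4% of all domains were called higher. Of the 9 member domains, 2 were.

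Among the gene-end SEACR domains of the 8 genes, that of Gata5 had the largest change. Its domain (chr2:180329033-180337680), which also overlaps the non-coding genes Gata5os and Gm52543, scored 1.29 and 1.22 in vehicle and 2.09 and 1.8 in AA. Both AA libraries lay above both vehicle libraries, with means of 1.94 ± 0.205 and 1.26 ± 0.0526 (SD, n = 2 each). The log2 change was 0.62 with a SE of 0.11 (limma adjusted p = 3.21e-05), and later changes are given in the same way, as log2 change ± SE. Inside the domain, the MACS2 peak over the start (chr2:180334595-180335696) scored 2.12 and 1.84 against 3.25 and 3.15, a change of 0.65 ± 0.14 (limma adjusted p = 0.006).

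Gata6 followed, with its domain at 1.56 and 1.51 in vehicle and 2.15 and 2.04 in AA. The groups did not overlap, and the change was 0.44 ± 0.10 (limma adjusted p = 0.00362). The narrow peak chr18:11055732-11056779 within it scored 2.79 and 2.59 against 4.46 and 4.81 (0.75 ± 0.12, limma adjusted p = 0.000521).

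Gata4, the family member that separates jejunum from ileum, showed the same order of libraries with a smaller difference. Its gene-end domain scored 1.3 in both vehicle libraries and 1.65 and 1.51 in AA, a change of 0.27 ± 0.12 that did not pass (limma adjusted p = 0.205). The longer domain in its body scored 1.22 in both vehicle libraries and 1.57 and 1.29 in AA (0.22 ± 0.12, limma adjusted p = 0.382). Of 13 MACS2 peaks within Gata4, 4 were called higher. The peak at the gene end (chr14:63270425-63271217) scored 2.37 and 2.25 in vehicle and 3.42 and 3.54 in AA, a change of 0.56 ± 0.13 (limma adjusted p = 0.0104).

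**Figure D1:**
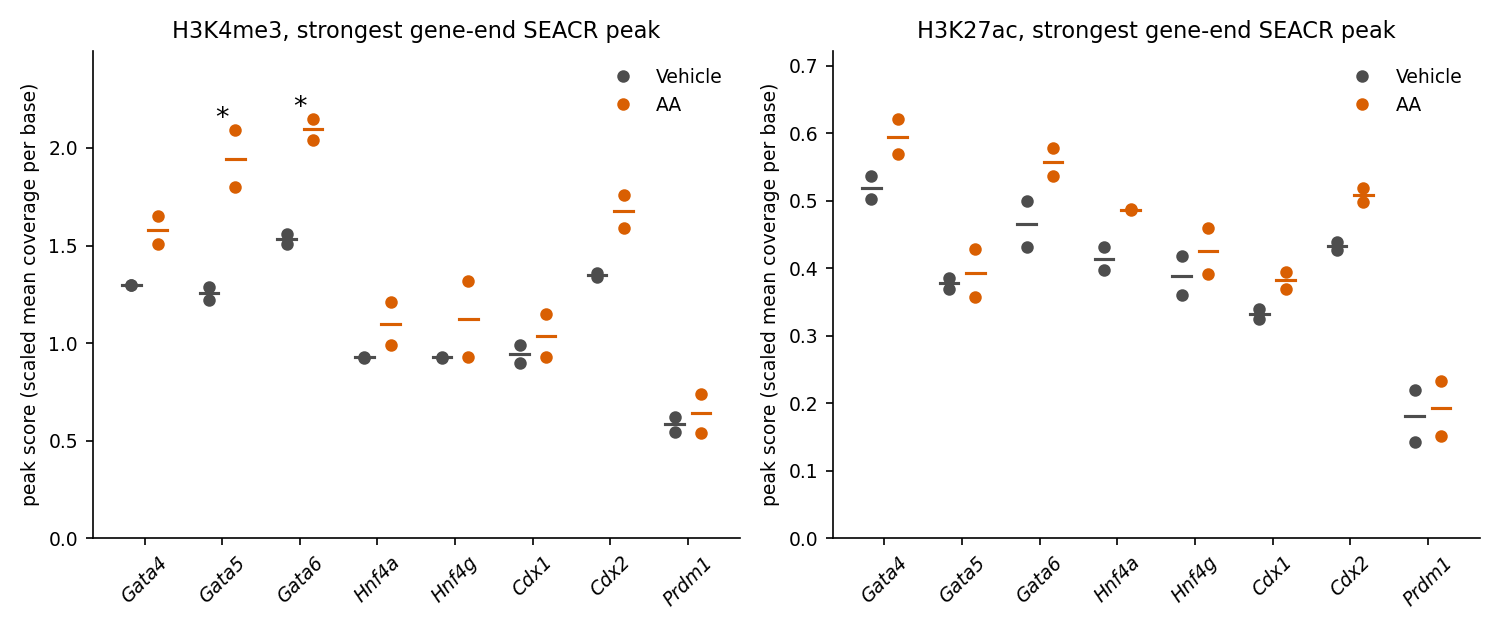
Peak score (scaled mean coverage per base) of the strongest gene-end SEACR peak of each gene for H3K4me3 (left) and H3K27ac (right). Points are the 2 libraries per group, short lines their mean, and an asterisk marks limma adjusted p below 0.05; for H3K4me3 the vehicle and AA libraries are widest apart at Gata5 (1.29 and 1.22 against 2.09 and 1.8) and Gata6, and no H3K27ac peak is marked.

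Of the caudal factors, Cdx2 had called narrow peaks and Cdx1 had none, a difference that was not tested. The Cdx2 domain scored 1.36 and 1.34 in vehicle and 1.76 and 1.59 in AA, so the groups were apart, but the change of 0.31 ± 0.12 did not pass (limma adjusted p = 0.124). Its narrow peak over the start (chr5:147307125-147307505) scored 2.4 and 2.17 against 3.58 and 4.07 and rose by 0.70 ± 0.13 (limma adjusted p = 0.00211). A second narrow Cdx2 peak (chr5:147302287-147302543) went from 2.04 and 1.98 to 3.29 and 3.79 (0.77 ± 0.13, limma adjusted p = 0.00135). The strongest Cdx1 domain (chr18:61031089-61040669) scored 0.992 and 0.897 in vehicle and 1.15 and 0.927 in AA, and these overlap. Of the 3 Cdx1 domains, 2 had both AA libraries below both vehicle libraries, where 30.5% of all H3K4me3 domains did. The larger fall of these, at chr18:61024314-61027416, went from 0.6 and 0.627 to 0.494 and 0.382 with no call (-0.47 ± 0.21, limma adjusted p = 0.23).

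Averaged by length over all SEACR domains of a gene, the H3K4me3 score in AA divided by that in vehicle was 1.55 at Gata5, 1.35 at Gata6, 1.27 at Hnf4g, 1.24 at Cdx2 and 1.18 at Gata4, and the libraries of the groups were apart at these 5 genes. It was 1 at Cdx1, 0.996 at Hnf4a and 0.973 at Prdm1, where they overlapped. On the log2 scale the first 5 ratios were 0.63, 0.43, 0.35, 0.31 and 0.24. The gene-end domains of these 5 genes lie in the top 10% by score. There the median change of all domains was 0.28, with 0.06 and 0.46 as 10th and 90th percentiles. Of all single domains, 18.3% were apart and higher and 30.5% apart and lower. With 2 libraries against 2, an exact permutation test cannot give a two-sided p below 0.333, so these ratios have no test of their own. Under quantile normalization the log2 ratio turned from 0.24 to -0.10 at Gata4 and from 0.31 to -0.02 at Cdx2, and at Gata4 it was 0.11 without AA replicate 1. On median centring it turned from -0.01 to 0.24 at Hnf4a and from -0.04 to 0.21 at Prdm1. Also under quantile normalization, the gene-end domains of Gata4, Cdx2, Cdx1, Hnf4g and Hnf4a P1 changed sign, to between -0.15 and -0.02, none of them called under either scaling.

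The narrow MACS2 peaks gave more calls. Of 46 member peaks, 11 were called higher and 1 lower, in Gata4, Gata5, Gata6, Hnf4a and Cdx2. Over all MACS2 peaks 6.3% were called, 5.22% higher and 1.09% lower. The 11 rises lay in the top 10% of peaks by score, where 19 member peaks fell. Of all peaks at that level 33.3% were called higher, and the median change over all of them was 0.42. The 19 member peaks had a median change of 0.54, and 57.9% of them were called higher. These peaks share 6 genes and are not independent, so no test was made of that share. The score is the mean of all 4 libraries, so a rise in AA itself helps place a peak at this level. The called Hnf4a P1 peak, for example, had a vehicle mean of 1.88, below the lowest score of 1.9 at this level. Changes also went up with level, and called member peaks reached percentile 99.8, so all peaks at this level are not a matched background.

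**Figure D2:**
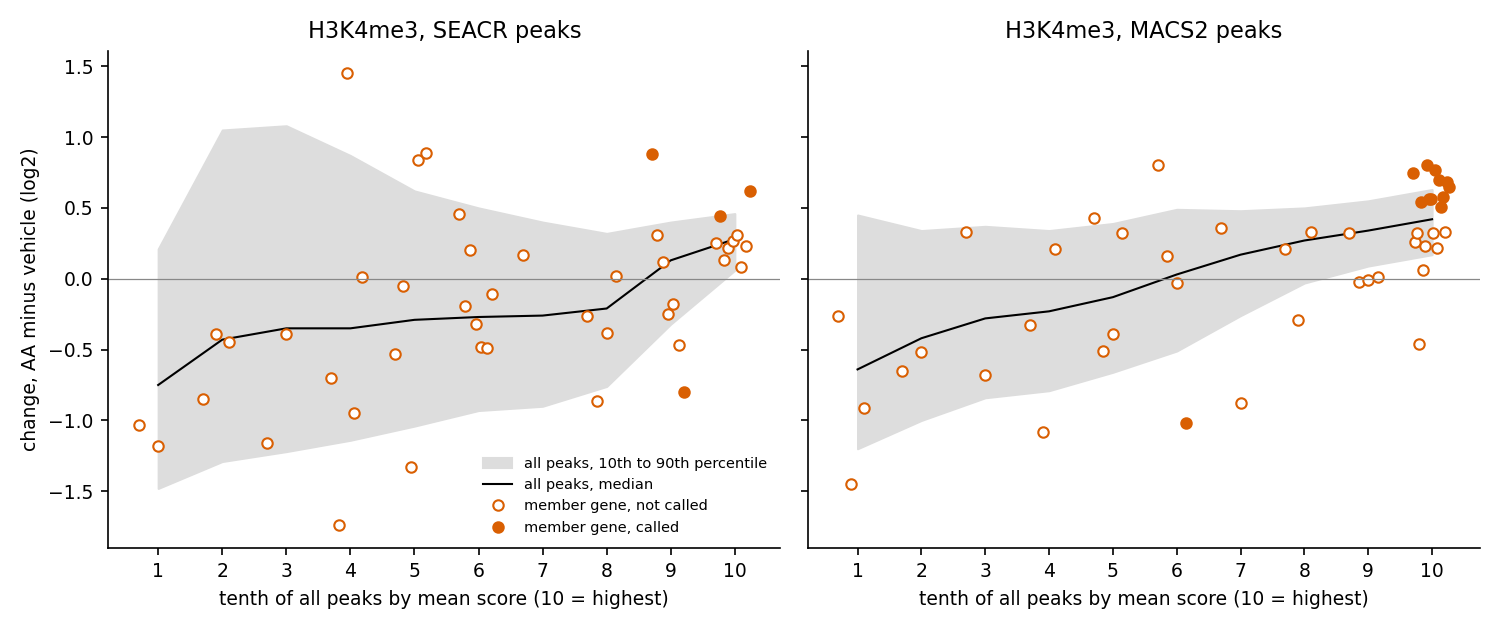
Change in H3K4me3 (AA minus vehicle, log2) of each member peak against its place among all peaks by mean score, in 10 equal bins, for SEACR (left) and MACS2 (right). The black line is the median and the grey band the 10th to 90th percentile of all peaks, filled points are called; the median of all peaks goes up with the level, to 0.28 and 0.42 in the highest bin, and all member calls but 3 lie in that bin.

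Within Hnf4a, H3K4me3 rose at both Hnf4a starts in the narrow peaks and fell at the Hnf4aos start. The narrow peak at P2 (chr2:163506591-163509212) scored 2.15 and 1.84 in vehicle and 3.13 and 2.71 in AA, and the one at P1 (chr2:163547118-163548999) scored 1.93 and 1.82 against 3.1 and 2.69. Both rose, by 0.51 ± 0.14 (limma adjusted p = 0.0315) and 0.58 ± 0.14 (limma adjusted p = 0.0154). Their broad domains did not pass, at 0.08 ± 0.15 (limma adjusted p = 0.81) for P2 and 0.23 ± 0.15 (limma adjusted p = 0.426) for P1.

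Between them, the narrow peak chr2:163540063-163541798 lay over the Hnf4aos start. It scored 1.53 and 1.56 in vehicle and 0.777 and 0.591 in AA, a change of -1.02 ± 0.24 (limma adjusted p = 0.0132). The surrounding domain (chr2:163534057-163542639) went from 0.631 and 0.647 to 0.371 and 0.341, a change of -0.80 ± 0.22 (limma adjusted p = 0.022). The Hnf4aos start, at base 163541721, lies 5434 bp upstream of the P1 start, within the span of Hnf4a. CUT&RUN reads carry no strand, so the mark there cannot be assigned to either gene.

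The ratio of this narrow peak to the P1 peak of the same library does not depend on the factor a library is multiplied by. It was 0.792 and 0.855 in vehicle and 0.25 and 0.22 in AA. Against the P2 peak it was 0.71 and 0.845 in vehicle and 0.249 and 0.218 in AA. In both ratios the vehicle libraries lay above the AA libraries with no overlap. The ratios do not remove a change that depends on level. Over all MACS2 peaks the median change was 0.03 in bin 6 of 10 by score, which holds this peak. It was 0.42 in the highest bin, which holds the P1 and P2 peaks. The H3K27ac domain over the Hnf4aos start (chr2:163537239-163543866) scored 0.341 and 0.302 in vehicle and 0.352 and 0.336 in AA, which overlap, with a change of 0.08 ± 0.17 (limma adjusted p = 0.908).

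**Figure D3:**
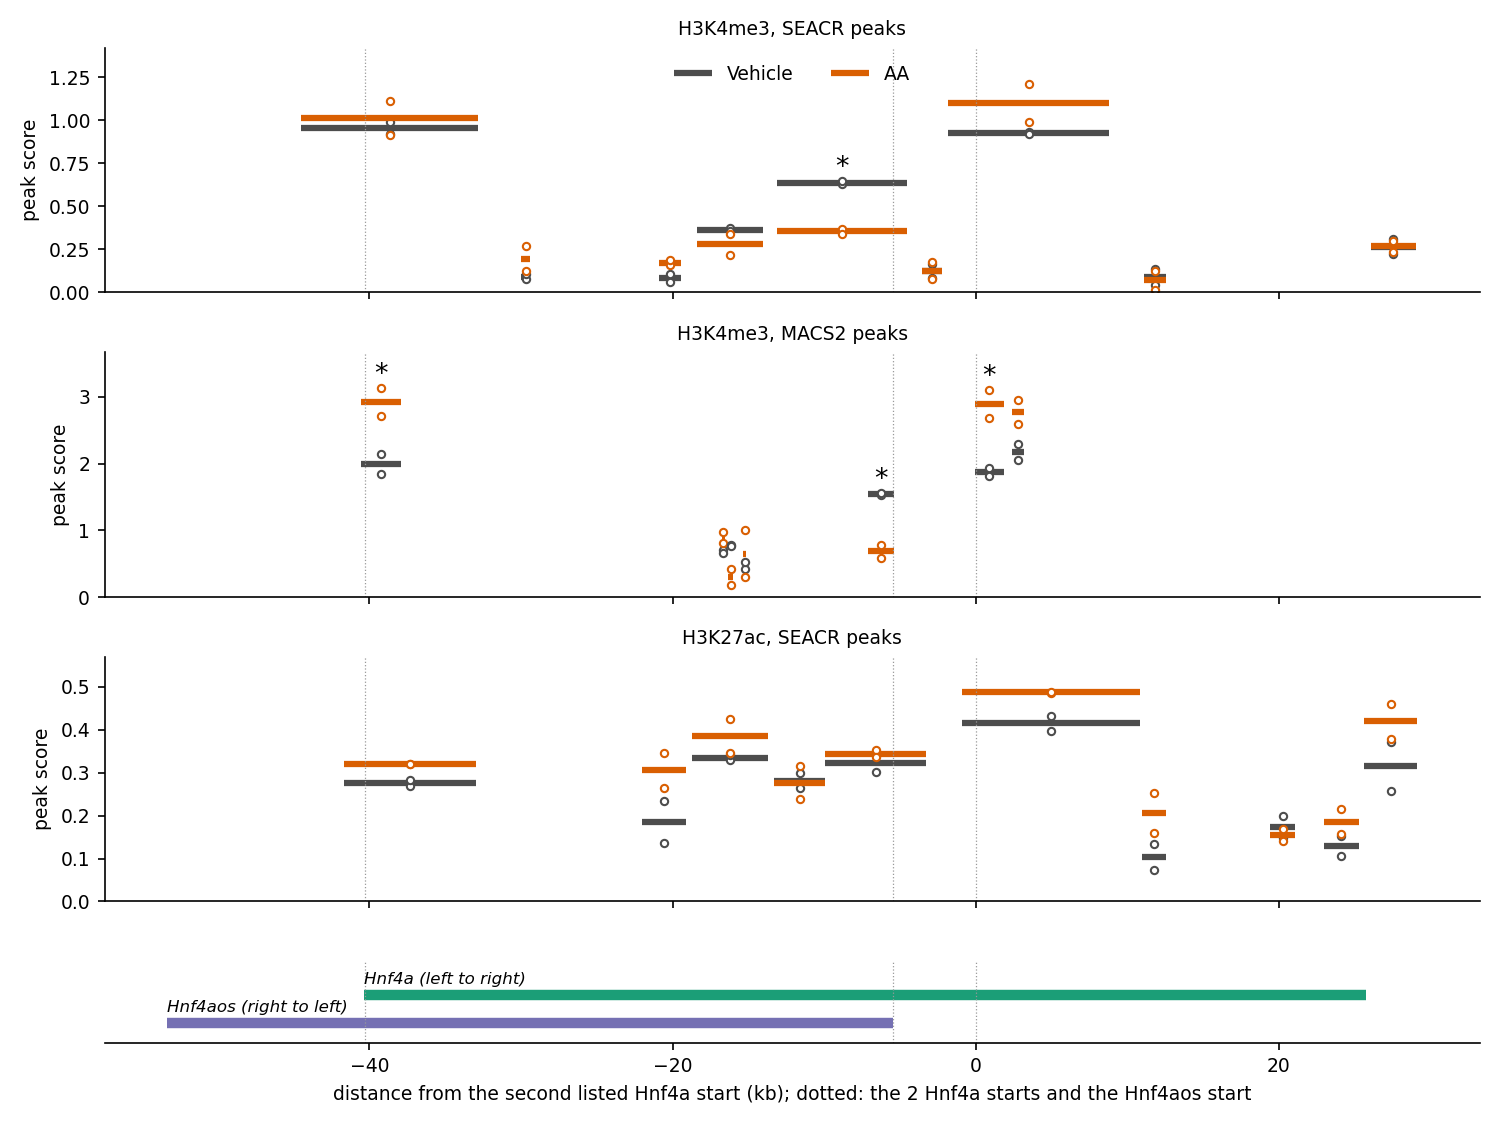
H3K4me3 (SEACR, MACS2) and H3K27ac (SEACR) peaks over Hnf4a, by distance in kb from its second listed start (P1). Horizontal lines are group means over the width of each peak, open circles the 2 libraries per group, asterisks limma adjusted p below 0.05, and dotted lines the 2 Hnf4a starts and the Hnf4aos start; H3K4me3 at the Hnf4aos start is lower in AA (narrow peak 1.53 and 1.56 against 0.777 and 0.591) while the narrow peaks at both Hnf4a starts are higher.

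At Hnf4g, the partner of Hnf4a, the called domain lay inside the gene. The internal domain chr3:3633016-3639690 scored 0.372 and 0.316 in vehicle and 0.657 and 0.652 in AA, and it rose by 0.88 ± 0.22 (limma adjusted p = 0.0093). Its narrow counterpart (chr3:3634175-3635884) scored 0.729 and 0.525 against 1.19 and 1.22, with groups apart but no call (0.80 ± 0.27, limma adjusted p = 0.0657). At the gene end the domain chr3:3505993-3510458 scored 0.93 and 0.926 in vehicle and 1.32 and 0.93 in AA, with a change of 0.25 ± 0.14 (limma adjusted p = 0.387).

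Prdm1 had no called H3K4me3 peak. Its gene-end domain (chr10:44454168-44460234) scored 0.623 and 0.545 in vehicle and 0.74 and 0.542 in AA, which overlap. Among its 8 domains, 4 were lower in both AA libraries than in both vehicle libraries and 1 was higher, where 30.5% and 18.3% of all H3K4me3 domains were. The highest, downstream of the listed start (chr10:44445767-44450351), scored 0.589 and 0.563 against 0.733 and 0.709 (0.31 ± 0.19, limma adjusted p = 0.41).

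Which H3K4me3 peaks passed changed with the libraries entered and with the scaling. With 1 vehicle library left out, the spread comes from the 2 AA libraries alone and the remaining vehicle library is assumed to vary like them. None of the 4 SEACR calls then passed, the smallest adjusted p being 0.55 at Gata5, with larger SEs and similar changes. Without vehicle replicate 1 or 2 the changes were 0.66 and 0.57 at Gata5, 0.47 and 0.42 at Gata6, 0.99 and 0.78 at Hnf4g and -0.82 and -0.79 at Hnf4a. Without AA replicate 1 there were 10 called domains, 4 higher and 6 lower, and without AA replicate 2 there were 12, 9 higher and 3 lower. The SEACR call at Hnf4a also ended with libraries centred on their medians (-0.59, limma adjusted p = 0.0705). In the MACS2 set, 5 member peaks were called by limma without vehicle replicate 1, 0 without vehicle replicate 2, 12 without AA replicate 1 and 21 without AA replicate 2. Quantile normalization, which forces the same distribution on the 4 libraries, left no member MACS2 peak called higher and 2 called lower. Under it the Gata5 start peak changed by 0.21 (limma adjusted p = 0.405) and the Cdx2 start peak by 0.24 (limma adjusted p = 0.396). The fall at the Hnf4aos start was -1.12 (limma adjusted p = 0.0175) under quantile normalization and -0.97 (limma adjusted p = 0.0147) with libraries centred on their medians, and without vehicle replicate 1 or 2 it was -1.03 and -1.01 and did not pass (limma adjusted p = 0.328 and 0.53). In simulated data with the spread of these libraries, the share of false calls among H3K4me3 calls was above the 0.05 aimed at.

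**Figure D4:**
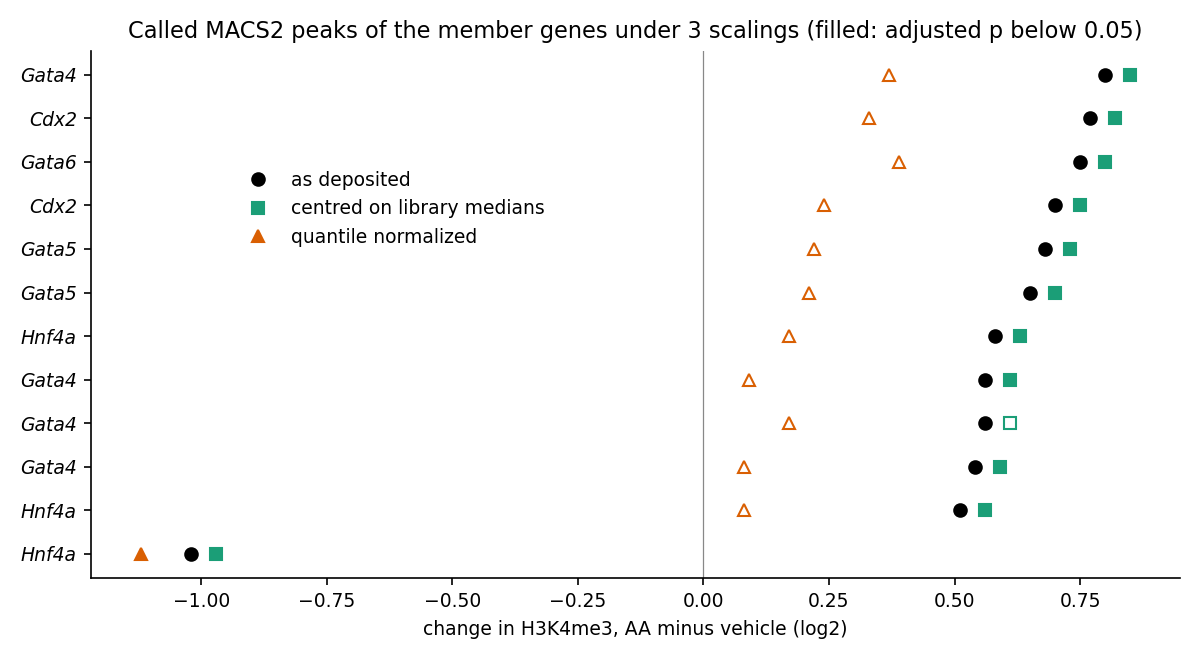
Change in H3K4me3 (AA minus vehicle, log2) at the 12 called MACS2 peaks of the 8 genes, with the deposited scaling (circles), libraries centred on their medians (squares) and quantile normalization (triangles). Filled symbols have limma adjusted p below 0.05; the 11 rises lie between 0.51 and 0.80 as deposited and lose the call under quantile normalization, 1 Gata4 peak loses it on centring, and the Hnf4a peak at the Hnf4aos start stays between -1.12 and -0.97.

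The second comparison concerned H3K27ac. None of the 45 member domains was called by limma, where 0.2% of all domains were, and none of the 3 member MACS2 peaks, where 0% were. At an unadjusted p below 0.05 there were 3 SEACR domains, all higher, in Hnf4a and Prdm1, and 0 MACS2 peaks. Without the trend and robust prior limma also called 0. The lowest adjusted p, 0.259, belonged to a Prdm1 domain downstream of the listed start (chr10:44445969-44449611), which scored 0.449 and 0.313 in vehicle and 0.52 and 0.547 in AA (0.44 ± 0.15).

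Small upward differences were common, as they were in the whole mark. Of the 45 domains, 38 had a positive change, and the median change was 0.12 against 0.11 over all H3K27ac domains. In 20 of the 45 both AA libraries were above both vehicle libraries, and in 2 both were below, where 28.5% and 10.7% of all domains were. At Cdx2 the domain scored 0.439 and 0.427 in vehicle and 0.519 and 0.498 in AA. At the Gata4 gene end it scored 0.536 and 0.502 against 0.621 and 0.569, and at Gata5, whose gene-end H3K4me3 domain had the largest change of the 8 genes, the libraries overlapped at 0.37 and 0.385 against 0.428 and 0.358, and the change of 0.05 turned to -0.03 on median centring.

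The third comparison concerned the Polycomb mark. H3K27me3 rose at Prdm1, at a peak at the outer end of the gene's span, upstream of the listed start (chr10:44523415-44529811). It scored 0.193 and 0.202 in vehicle and 0.336 and 0.343 in AA, a change of 0.69 ± 0.13 (limma adjusted p = 0.0015). The narrow peak inside it (chr10:44528354-44528548) scored 0.633 and 0.164 in vehicle and 0.53 and 0.69 in AA, which overlap, with no call (limma adjusted p = 0.713). This was the single call among 18 member peaks. Over all H3K27me3 peaks 0.545% were called and 0.498% called higher, and 4.48% were called higher in the top 10% by score, to which this peak belongs.

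The peak overlaps an H3K4me3 domain (chr10:44526233-44531117) that scored 0.585 and 0.604 in vehicle and 0.619 and 0.399 in AA, with no call (-0.25 ± 0.21, limma adjusted p = 0.575). Of the bases under H3K27me3 at Prdm1, 29.9% also lay under H3K4me3. Both marks on the same bases in a mixed culture can come from the same or from different cells, and these cannot be told apart.

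Across Prdm1 the other H3K27me3 peaks mostly went the same way without passing. Of its 14 peaks, 11 had both AA libraries above both vehicle libraries and 1 had both below, where 26.3% and 13.4% of all H3K27me3 peaks did. The length-weighted mean over the gene was 0.113 and 0.119 in vehicle and 0.223 and 0.214 in AA, a ratio of 1.88. The broadest, chr10:44475062-44482216, scored 0.113 and 0.0634 against 0.236 and 0.224 (1.15 ± 0.33, limma adjusted p = 0.0999). Peaks of the same gene share their 4 libraries, so these counts describe the locus and carry no test.

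The call at Prdm1 ended with libraries centred on their medians (limma adjusted p = 0.185) and with quantile normalization (0.4), which gave changes of 0.58 and 0.47, and when any of the 4 libraries was left out, where the change was 0.66 to 0.72. The whole mark moved by a median of 0.12 between the groups as deposited and by 0.01 after centring. Raw coverage of the median H3K27me3 peak was 1.85 and 1.29 in vehicle and 1.19 and 1.6 in AA, so most of these peaks rest on few fragments.

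**Figure D5:**
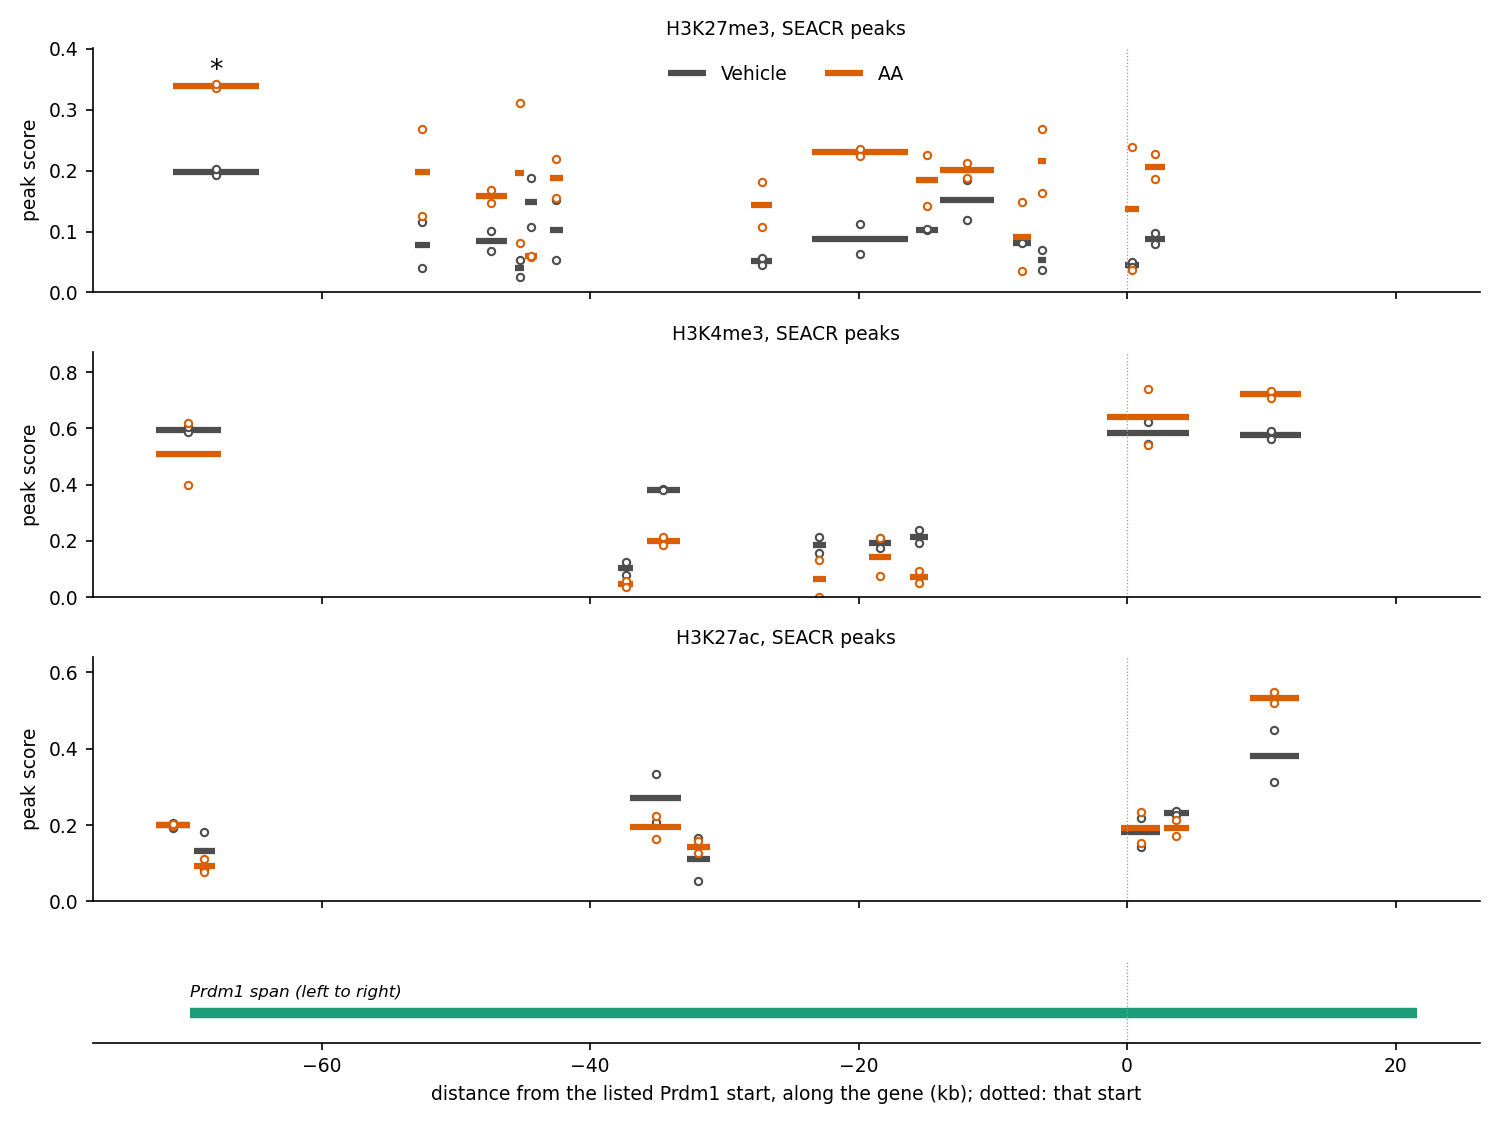
H3K27me3, H3K4me3 and H3K27ac SEACR peaks over Prdm1, by distance in kb along the gene from its listed start. Horizontal lines are group means over the width of each peak, open circles the 2 libraries per group and the asterisk limma adjusted p below 0.05; 11 of the 14 H3K27me3 peaks have both AA libraries above both vehicle libraries, and 4 of the 8 H3K4me3 domains have both AA libraries below both vehicle libraries.

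Elsewhere H3K27me3 was sparse at these genes. Gata4 had 1 peak, chr14:63267648-63269075, inside its gene-end H3K4me3 domain, at 0.0973 and 0.0356 in vehicle and 0.165 and 0.213 in AA (1.22 ± 0.49, limma adjusted p = 0.363). The Hnf4a P1 peak (chr2:163547166-163548296) scored 0.0493 and 0.14 against 0.166 and 0.0542, which overlap. The peak at Cdx2 (chr5:147298884-147300801) was at 0.0484 and 0.0743 in vehicle and 0.00806 and 0.0528 in AA, also overlapping.

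The genes around these factors in the network were described by the H3K4me3 peak at the end of each gene, from lists chosen with earlier results of these data known. Over 14269 genes with such a peak the median change was 0.20, with 5.43% called higher and 1.23% called lower. Of 30 enterocyte genes listed as targets of HNF4 and CDX2, 1 was called higher and 4 lower, and the median change was 0.16. Regulation of these genes by either factor was not measured here. The 4 called lower are brush-border and transport genes. Dpp4, a dipeptidyl peptidase, went from 1.01 and 0.9 to 0.512 and 0.389 (-1.05 ± 0.19, limma adjusted p = 1.35e-05). The others were Mep1a, a metalloprotease subunit (-1.14 ± 0.23, 0.000202), Anpep, an aminopeptidase (-0.94 ± 0.23, 0.00525), and Slc2a2, the GLUT2 sugar transporter (-1.48 ± 0.36, 0.00538). Some brush-border genes of the list were higher in both AA libraries without a call, among them Mep1b (0.50 ± 0.24, limma adjusted p = 0.268) and Myo7b (0.39 ± 0.16, 0.159). Of the 30 genes, 13 had both AA libraries above both vehicle libraries and 8 had both below. Of all H3K4me3 domains, at gene ends or elsewhere, 18.3% and 30.5% did.

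Mttp, which loads lipid onto apolipoprotein B, rose from 1.1 and 0.947 to 1.41 and 1.39 (0.45 ± 0.13, limma adjusted p = 0.033), and that call ended under quantile normalization (0.437). The 4 falls were called under median centring and under quantile normalization, and did not pass with either vehicle library left out, where the spread again comes from the AA libraries alone and the changes were between -1.62 and -0.90. Of the list, 8 genes had a gene-end H3K27me3 peak and 0 were called. The highest change was at Dpp4, with 0.0529 and 0.0294 in vehicle and 0.231 and 0.215 in AA (1.81 ± 0.53, limma adjusted p = 0.107). The lowest was at Guca2a, with 0.0699 and 0.217 against 0.0432 and 0.0256 (-1.26 ± 0.70, 0.592). Gene-end H3K27ac at Dpp4 scored 0.286 and 0.401 in vehicle and 0.475 and 0.423 in AA, with no call (0.34 ± 0.16, limma adjusted p = 0.576).

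Among 26 partner factors with a gene-end H3K4me3 peak, 2 were called higher and 0 lower, with a median change of 0.08. They were Foxa1, a pioneer factor of endoderm, from 1.32 and 1.27 to 1.93 and 1.84 (0.53 ± 0.11, limma adjusted p = 0.000622), and Zfpm1, a GATA cofactor, from 0.717 and 0.706 to 1.14 and 0.953 (0.53 ± 0.16, 0.0357). Gene-end H3K27me3 was called higher at 3.06% and lower at 0.221% of 6787 genes. Of 14 partner genes with such a peak, Nr5a2, a nuclear receptor of the crypt, rose from 0.056 and 0.0678 to 0.257 and 0.26 (1.62 ± 0.37, limma adjusted p = 0.0143), and Sp5, a Wnt target, from 0.256 and 0.265 to 0.368 and 0.354 (0.42 ± 0.11, 0.0354). Both H3K27me3 calls ended on median centring and when any of the 4 libraries was left out, with changes of 1.53 to 1.71 at Nr5a2 and 0.40 to 0.45 at Sp5. With either vehicle library left out the H3K4me3 changes were 0.56 and 0.51 at Foxa1 and 0.54 and 0.52 at Zfpm1 and did not pass.

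On a list of jejunal and ileal genes linked to GATA4, 11 had a gene-end H3K4me3 peak. The list does not separate genes that GATA4 raises from those it lowers, so its median change has no expected direction. Npc1l1, the cholesterol importer of the proximal intestine, was called lower for H3K4me3, from 0.717 and 0.789 to 0.481 and 0.391 (-0.76 ± 0.20, limma adjusted p = 0.0144). That call ended on median centring (0.0611). The other 10 were not called. Abcg5 and Abcg8 share a peak, so the 11 genes rest on 10 peaks, and the median change of -0.24 is that of the shared peak. Of 16 genes that Prdm1 sets apart between the neonatal and the adult gut, Dab2, an endocytic adaptor of the suckling ileum, was called lower, from 0.289 and 0.303 to 0.0826 and 0.123 (-1.34 ± 0.39, limma adjusted p = 0.0305). The median change of these 16 was -0.17. Neonatal and adult genes stand together on this list, so its median change has no expected direction either. The median score of its peaks was 0.416, against 0.721 over all genes. With either vehicle library left out the changes were -0.83 and -0.69 at Npc1l1 and -1.38 and -1.31 at Dab2 and did not pass. The call at Dab2 also ended under quantile normalization (limma adjusted p = 0.0563).

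Stomach and oesophagus genes, which loss of CDX2 can release, were examined in the same way. Of 19, 5 had a gene-end H3K4me3 peak and 0 were called, the highest change being -0.09 at Irx5 and the lowest -0.83 at Pax9 (0.242 and 0.265 in vehicle, 0.125 and 0.138 in AA). A gene-end H3K27me3 peak was found at 11 of the 19 and none was called. Gene-end H3K27ac was called at 0.244% of 11482 genes and at 0 genes of these 5 lists.

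For Hnf4a and Prdm1, the members with a gene-end peak in all 3 marks, the genes with the most similar profile over the 12 libraries were sought among 2357 genes. The nearest to Hnf4a were Psmd12, Wdr11 and Hsd17b12, at Euclidean distances of 0.67, 0.722 and 0.852 on the log2 scale, where the median distance was 2.6. The nearest to Prdm1 were Tmem67, Bmyc and Actr6, at 0.952, 1.01 and 1.05, where the median was 2.89. These distances mostly compare levels of the marks and carry no test.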

How the data were processed

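CUT&RUN libraries for H3K4me3, H3K27ac and H3K27me3 from mouse intestinal organoids were analysed, 2 per group and mark. The deposited signal is a peak score, 1 per peak and library, for peaks called with SEACR and MACS2 on mm10, per the submitters' processing notes; for the aligner, the versions and the scaling, the entry is: not given in the sources used here. In each library, multiplying score by peak length gave whole numbers of a fixed step (100% of values under 1000 steps, tolerance 0.1 step). Raw coverage is the score divided by that step. Control rows were read as vehicle.

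AA was compared with vehicle in R 4.3.3 with limma 3.58.1, with trend and robust prior, fitted to log2(score + pseudocount) of all SEACR peaks of a mark (58548, 62547 and 105301 for H3K4me3, H3K27ac and H3K27me3), and separately over all MACS2 peaks. P-values were adjusted by Benjamini-Hochberg and called below 0.05. As pseudocount the 5th percentile of scores above 0 was used, 0.0253, 0.0693 and 0.0329 for SEACR and 0.164, 0.281 and 0.0957 for MACS2. On this scale the change of a weak peak is understated. The fit was tested on simulated data, where it made more false H3K4me3 calls than the threshold aims at and missed most of the smaller changes set into the data.

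For each gene and mark the peaks examined were the strongest gene-end peak, the strongest peak, every called peak or else that with the lowest adjusted p, and the MACS2 counterpart. From each list, up to 4 called genes or else the highest and lowest change were taken. Not all of these peaks are given with their scores in the text. Members, lists and rules were chosen with earlier results of these data known. Alternatives were other scalings, pseudocounts, filters, priors, thresholds, peak sets, the replicate block and leaving out each library. Median-centred MACS2 peaks, the refits of the MACS2 set, centring on the strongest 25% of peaks and the within-library ratio at Hnf4aos were added after the data were seen. Reference sequences and gene spans came from RefSeq (GRCm38.p6).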

Additional observations from a re-analysis of the deposited data

How the results depend on the processing

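The number of called peaks depended on scaling, on single libraries and on the prior, and with 2 libraries per group and few fragments per weak peak the data cannot separate depth from treatment for H3K4me3. Scaling moved the median change of all H3K4me3 domains from -0.19 as deposited to 0.02 on median centring and -0.03 with quantile normalization. Calls split into 904 higher and 806 lower as deposited, 5557 and 549 centred, and 980 and 1388 quantile normalized. For H3K4me3 MACS2 peaks the split was 1907 and 397 as deposited, and 127 and 253 quantile normalized. For H3K27me3 it was 524 and 50 as deposited, 47 and 32 centred, and 84 and 80 quantile normalized. The cause of these shifts was not tested.

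Against 1710 called H3K4me3 domains there were 6106 on centring, 5446 centred on the strongest 25% of peaks, 5134 in centred MACS2 peaks, 540 at a threshold of 0.01, 0 without the trend and robust prior, and 36 and 32 without a vehicle library against 8478 and 8903 without an AA library, where the spread comes from the other group alone. Against 4 called at the 8 genes there were 8, 7 and 13 with the same 3 scalings, 12 in MACS2 peaks, 0 without the prior, and 0 to 12 with a library left out. Against 12 MACS2 peaks there were 2 with quantile normalization and 0 to 21 with a library left out. Against 125 called H3K27ac domains there were 0 among peaks at or above the median level, 0 in MACS2 peaks, 2 in centred MACS2 peaks, 0 without the prior, 54 at 0.01, and 0 to 120 with a library left out. Against 574 called H3K27me3 peaks there were 79 on centring, 164 with quantile normalization, 179 centred on the strongest 25%, 10 in MACS2 peaks, 9 in centred MACS2 peaks, 0 without the prior, 253 at 0.01, and 44 to 90 with a library left out. The 1 call at Prdm1 became 0 in each of these except at 0.01.

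For partner factors, 2 H3K4me3 calls became 9 on centring, 4 centred on the strongest 25%, 0 without the prior and 0 to 10 with a library left out. Their 2 H3K27me3 calls became 1 with the pseudocount at the 25th percentile, and 0 on centring, with quantile normalization, centred on the strongest 25%, without the prior and with any library left out. For HNF4 and CDX2 targets, 5 became 13, 9, 0 and 0 to 13 under centring, the strongest 25%, no prior and a library left out. For the GATA4 list, 1 became 2 with quantile normalization, 2 with the strongest 25% and 0 without the prior. For the Prdm1 list, 1 became 4 on centring, 4 with the strongest 25%, 2 among peaks at or above the median level, 0 without the prior and 0 to 5 with a library left out.

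The length-weighted H3K4me3 means of Gata4, Cdx2, Hnf4a and Prdm1 changed sign under other settings. Besides the values in the report, Hnf4a was at 0.31 and Prdm1 at 0.12 in MACS2 peaks, and they were at 0.12 and 0.13 without AA replicate 2. Among named peaks, those that changed sign were gene-end peaks that were not called. As deposited, the H3K27ac changes of these were 0.17 at Cdx1, 0.05 at Gata5, 0.11 at Hnf4g and 0.07 at Prdm1. The H3K27me3 changes were 0.14 at Hnf4a and 0.81 at Prdm1. For H3K4me3, quantile normalization gave -0.15 at Cdx1, -0.02 at Cdx2, -0.07 at Gata4, -0.04 at Hnf4a and -0.03 at Hnf4g. Cdx1 was at -0.03 and Prdm1 at -0.10 without AA replicate 1, and they were at -0.03 and -0.04 centred on the strongest 25%. For H3K27ac, Cdx1 was at -0.38 in MACS2 peaks. Gata5 was at -0.03 on centring, -0.11 with quantile normalization, -0.06 without AA replicate 1 and -0.10 with the strongest 25%. Hnf4g was at -0.04 with quantile normalization and -0.03 with the strongest 25%. Prdm1 was at -0.01 on centring, -0.05 with quantile normalization, -0.15 without vehicle replicate 1, -0.16 without AA replicate 1 and -0.08 with the strongest 25%. For H3K27me3, Hnf4a was at -0.39 without vehicle replicate 1, -0.45 without AA replicate 1 and -0.08 with the strongest 25%, and Prdm1 was at -0.17 without AA replicate 2. With each library left out in turn these peaks ranged, for H3K4me3, from -0.03 to 0.28 at Cdx1 and from -0.10 to 0.33 at Prdm1. The ranges for H3K27ac were -0.06 to 0.16 at Gata5 and -0.16 to 0.29 at Prdm1, and for H3K27me3 -0.45 to 0.74 at Hnf4a and -0.17 to 1.79 at Prdm1.

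Libraries with the same replicate number did not deviate together (r = -0.00228, 0.00853 and 0.00247 over peaks for H3K4me3, H3K27ac and H3K27me3), so the numbers were not taken as pairs. With the replicate block, limma called 2522 H3K4me3, 280 H3K27ac and 857 H3K27me3 peaks, and 12 MACS2 H3K4me3 peaks at the 8 genes. Under the block the HNF4 and CDX2 targets had 8 H3K4me3 calls, the Prdm1 list 3, and the GATA4 list 1 H3K27ac call.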

Other observations

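In the 50 kb on each side of the 8 genes, 0 of 51 H3K4me3, 0 of 46 H3K27ac and 0 of 39 H3K27me3 SEACR peaks were called, where 2.92%, 0.2% and 0.545% of all peaks were, so these counts of 0 are near the background. Around Gata5, 4 of 9 flanking H3K4me3 domains had both AA libraries above both vehicle libraries and 0 had both below, with a median change of 0.20. Around Gata4 the counts were 0 and 5 of 10, with a median change of -0.33, and around Gata6 they were 0 and 3 of 4, with a median change of -1.24. Of all H3K4me3 domains, 18.3% were apart and higher and 30.5% apart and lower.

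Within the long Gata4 body domain the narrow peaks did not move as a block. The peak chr14:63242822-63243215 rose from 2.75 and 2.59 to 4.22 and 3.71 (0.54 ± 0.12, limma adjusted p = 0.0103). The peak chr14:63238690-63238960 went from 2.49 and 2.29 to 1.54 and 1.85, with groups apart and no call (-0.46 ± 0.15, limma adjusted p = 0.0695). Each was also divided by the gene-end peak of the same library, which removes a constant factor of the library but not a change that depends on level. The second peak was then at 1.05 and 1.02 in vehicle and 0.45 and 0.524 in AA, and the first at 1.16 and 1.15 against 1.23 and 1.05. Both were singled out after their values were seen.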
